A study of Mus musculus with 12 samples.

Results

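miR-10 and miR-196 are microRNAs (miRNAs) whose genes lie inside the Hox clusters, and 2 of the 4 names searched, miR-10b and miR-196b, could be read among the 593 assays of the deposited table. The assays of that table are numbered, and 270 of them were named by matching their values to the lists printed by the study. The names searched were miR-10a, miR-10b, miR-196a and miR-196b. The assays for miR-10a and miR-196a were not among the named ones and were not analysed here. All 12 samples came from bone marrow of C57BL/6 mice and carried no genetic change or treatment in the labels. They were LSK cells (the lineage-negative, Sca1+ and cKit+ fraction, which holds the stem and early progenitor cells), promyelocytes, myelocytes and granulocytes, each sorted by flow cytometry and each read as 1 whole cell, 1 cytoplasmic and 1 nuclear RNA sample from 100 ng of RNA. With 1 sample per stage and fraction and 1 well per assay, no test between stages was possible and no value below has a replicate check. Each value describes the sorted population as gated, in which fewer cells of a type and less RNA per cell cannot be told apart.

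Hox genes encode transcription factors that give cells their position along the body axis, and in the blood system several of them, Hoxa9 among them, are active in stem and progenitor cells and are shut down as cells mature. The miRNA genes embedded between them are transcribed from the same chromosomal domains. A mature miRNA is loaded into an Argonaute protein and pairs through its seed, the bases near its 5′ end, with messenger RNAs in the cytoplasm, and Hox transcripts are among the known targets of both miR-10 and miR-196. miR-196b is known for high levels in leukemias that keep Hoxa genes on.

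In the RefSeq annotation of mouse GRCm38.p6, the Mir10b hairpin lies on the plus strand of chromosome 2 from 74726070 to 74726137, within the annotated spans of Hoxd3 and Hoxd4. The Mir196b hairpin lies on the minus strand of chromosome 6 from 52230081 to 52230165, between Hoxa9 and Hoxa10 and within the span of the non-coding gene Gm52902. Hoxa9 is 2710 bases and Hoxa10 1031 bases away from it. The annotation table gives gene spans and not exons, so whether a hairpin is exonic or intronic was not read. The deposited values name no genome build, and these positions belong to the reference alone.

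The mature sequences of the 4 miRNAs are shown because the pairs differ so little and because the seed sets what each can bind. They are from RefSeq, written 5′ to 3′, and the capitals mark the seed, bases 2 to 8.
miR-10b: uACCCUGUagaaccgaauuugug
miR-10a: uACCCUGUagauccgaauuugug
miR-196b: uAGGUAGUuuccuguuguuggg
miR-196a: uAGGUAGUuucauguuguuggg
miR-10b and miR-10a differ at 1 base, A12U, and miR-196b and miR-196a at 1 base, C12A, with positions counted from the 5′ end, the first base of each token in the b form and the second in the a form. Neither difference is in the seed. Among 1679 mature mouse miRNA names in the RefSeq table, the seed of miR-10b was held by 2 names, miR-10a and miR-10b, and the seed of miR-196b by 2 names, miR-196a and miR-196b.

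In quantitative PCR the CT is the cycle at which a product crosses the detection threshold, so more template gives a lower CT, and at full efficiency 1 cycle is 2-fold. Undetermined wells are listed at 40, and the study relied on CT values under 30. Among the 270 named assays, 202 to 220 were below 40 in the whole cell samples, 206 to 234 in the cytoplasmic and 159 to 179 in the nuclear samples. The cytoplasmic promyelocyte sample stood apart: the mean CT of its control assays, the last 3 of card B, was 26.2, against 22.9 to 24.5 in the other 3 cytoplasmic samples and 21.6 to 22.3 in whole cell RNA, and the mean CT of its named assays was 26.7 against 25.6 to 25.7. This mean, used below as another constant, is over the named assays that were under 30 in all 4 stages of a fraction. Cytoplasmic changes that rest on this sample are given below with the whole cell change beside them. The labelled stages were checked with marker miRNAs. miR-223, the miRNA that marks granulocytic cells, had a whole cell CT of 23.98, 19.5, 17.3 and 16.4 in the order from LSK to granulocytes. The summed level of 4 named stem and progenitor miRNAs (of 5 listed: miR-125a-5p, miR-125b-5p, miR-130a and miR-155), written as a CT, was 25.6, 27.0, 28.5 and 29.5 in the same order. Both went in the order of the labels. The sum was carried by miR-155, and miR-125a-5p was lower in myelocytes, at a CT of 35.4, than in granulocytes, at 34.1. The blood cell markers miR-142-3p and miR-142-5p were detected in every whole cell sample, with a summed level of 25.3, 22.9, 21.1 and 20.6.

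miR-196b was highest in LSK cells and lower at each later stage in whole cell RNA. Its whole cell CT was 25.8 in LSK cells, 29.3 in promyelocytes, 31.3 in myelocytes and 33.2 for granulocytes. Each neighbouring pair of stages was more than 1 cycle apart, and the CT left the range under 30 between promyelocytes and myelocytes. In cytoplasmic RNA the CT of miR-196b was 25.1 in LSK cells, 29.4 in promyelocytes, 33.7 in myelocytes and 32.7 for granulocytes. LSK was again highest, and the lowest place passed from granulocytes to myelocytes, with only 0.93 cycles between them and both above 30. In nuclear RNA the CT was 28.9 in LSK and 31.5 in promyelocytes, and the wells of myelocytes and granulocytes were undetermined.

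miR-10b went the other way in whole cell RNA, where granulocytes had the most. Its whole cell CT was 30.4 in LSK cells, 31.1 in promyelocytes, 29.0 in myelocytes and 27.4 for granulocytes. LSK and promyelocytes were within 1 cycle of each other, and the other neighbours in this order were more than 1 cycle apart. In cytoplasmic RNA the CT of miR-10b was 28.2 in LSK cells, 34.2 in promyelocytes, 29.8 in myelocytes and 28.7 for granulocytes. Promyelocytes had the lowest level, 4.39 cycles beyond the next stage, while LSK and granulocytes differed by 0.49 cycles. All 4 nuclear wells of miR-10b were undetermined.

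**Figure D1:**
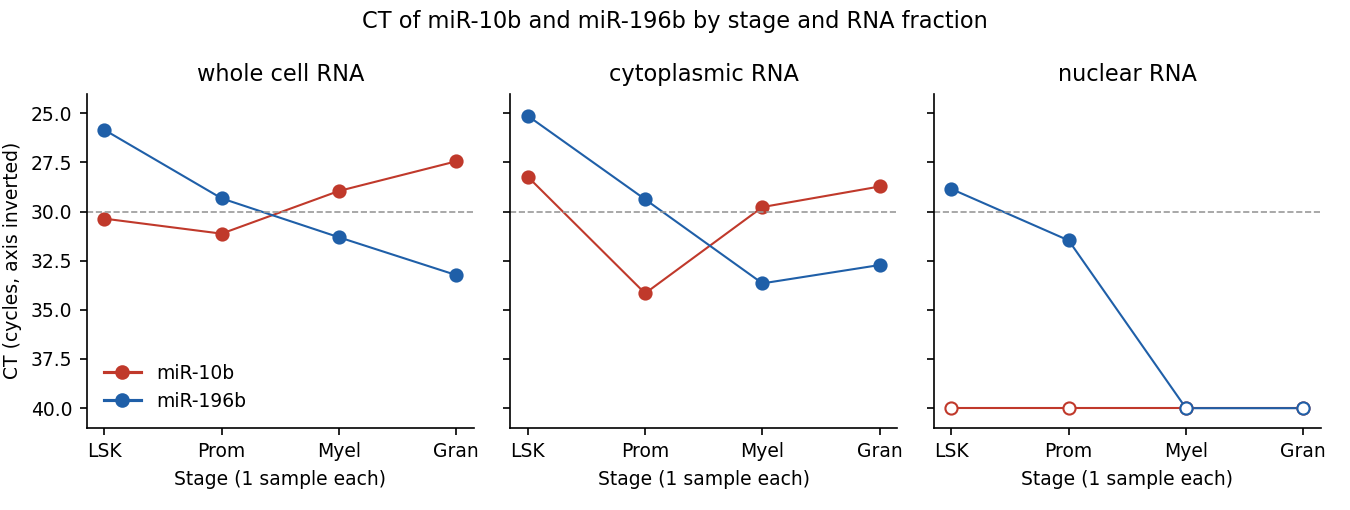
CT of miR-10b (red) and miR-196b (blue) in LSK cells, promyelocytes (Prom), myelocytes (Myel) and granulocytes (Gran) for whole cell, cytoplasmic and nuclear RNA, 1 sample per point, on an inverted axis in cycles; open points at 40 are undetermined wells, the dashed line is a CT of 30, and the red points of nuclear myelocytes and granulocytes lie under the blue ones. miR-196b goes from a CT of 25.8 to 33.2 across the whole cell samples while miR-10b goes from 30.4 to 27.4, and the cytoplasmic promyelocyte value of miR-10b sits at 34.2.

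The stage differences in whole cell RNA are CT differences from which the shift of the control assays was subtracted, with 1 cycle taken as 1 unit on the log2 scale. A miRNA was counted when it differed 2-fold or more and either stage had a CT under 30. From LSK to promyelocytes miR-196b changed by -3.73 on the log2 scale, a level 13.3-fold lower. miR-10b changed by -1.01, or 2.02-fold, but its CT was above 30 in both stages and it was not counted. This left 1 of the 2 counted as lower, where 18 of 104 named assays (17.3%) were lower and 35 (33.7%) higher. The change of miR-196b was the fifth largest decrease of these assays, whose median change was 0.43.

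From promyelocytes to myelocytes the 2 miRNAs moved apart. miR-10b changed by 2.18 on the log2 scale, 4.54-fold higher, and miR-196b by -1.97, 3.91-fold lower. Both were counted, where 47 of 112 named assays (42.0%) were higher and 14 (12.5%) lower. The median change was 0.75 with quartiles of -0.54 and 1.81, and both miRNAs lay outside this middle range, on opposite sides. From myelocytes to granulocytes miR-10b changed by 1.07, 2.10-fold higher, a call at the limit that was lost at 1.9-fold per cycle (0.99). At this last step 13 of 120 named assays (10.8%) were higher and 8 (6.67%) lower. miR-196b changed by -2.36, 5.14-fold lower, with a CT above 30 in both stages, and was not counted.

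Against LSK, whole cell myelocytes had a log2 change of 1.17 for miR-10b and -5.70 for miR-196b. Both passed the limit, where 58 of 113 named assays (51.3%) were higher and 17 (15.0%) lower, and the median was 1.099. With the named-assay mean as the constant, the change of miR-10b was 0.32 and no longer passed.

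Over the whole course, granulocytes had 267-fold less miR-196b than LSK cells, a log2 change of -8.06, the largest decrease of 124 named assays that came under a CT of 30 in either stage. Subtracting another constant moves all assays alike and leaves this order as it is. miR-196b entered this set through LSK alone, since its granulocyte CT of 33.2 was above 30, so the size of its decrease is approximate. miR-10b was 4.72-fold higher in granulocytes, a log2 change of 2.24, and 41 named assays had a larger increase. Both miRNAs passed the limit, where 69 of the 124 (55.6%) were higher and 20 (16.1%) lower. This split was 85 and 12 without scaling and 51 and 31 with the named-assay mean as the constant. The median change of the 124 was 1.31 with quartiles of -0.12 and 2.72, and miR-10b lay within this middle range. With the mean CT of the named assays as the constant, the change of miR-10b was 1.40 and that of miR-196b -8.90. Without scaling, the change of miR-196b was -7.39.

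The control assays, which the table does not name, had a lower CT in nuclear RNA (20.5 to 21.9) than in cytoplasmic RNA (22.9 to 26.2) at every stage. For cytoplasmic RNA the unscaled CT difference is therefore given, with the same change after subtracting the mean CT of the named assays. From LSK to promyelocytes miR-10b changed by -5.93 on the log2 scale, 60.9-fold lower (-4.76 after this subtraction). miR-196b changed by -4.24, 19.0-fold lower (-3.07), where its whole cell change was -3.73. Both were counted as lower, and so were 71 of 111 named assays (64.0%), with 9 (8.11%) higher and a median of -1.26. The decrease of miR-10b was the 6th largest of the 111 and that of miR-196b the 12th largest. The whole cell change of miR-10b over the same stages was -1.01, with a CT above 30 in both stages. With the control assays as the constant, the cytoplasmic changes were -4.08 for miR-10b and -2.39 for miR-196b.

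From promyelocytes to myelocytes cytoplasmic miR-10b changed by 4.39, 20.9-fold higher (3.33 after this subtraction), where its whole cell change was 2.18. Cytoplasmic miR-196b changed by -4.27, 19.3-fold lower (-5.33), where its whole cell change was -1.97. Both passed the limit, where 60 of 110 named assays (54.5%) were higher and 9 (8.18%) lower. The decrease of miR-196b was the second largest and the increase of miR-10b the 5th largest of the 110. With the control assays as the constant, the changes were 2.71 for miR-10b and -5.95 for miR-196b. From myelocytes to granulocytes miR-10b changed by 1.05 in cytoplasmic RNA, 2.07-fold higher, where 12 of 109 named assays (11.0%) were higher and 12 (11.0%) lower. This call lay at the limit: it was 0.996 with the mean CT of the named assays and -0.54 with the control assays as the constant. miR-196b changed by 0.93 (0.88 after subtracting the named-assay mean), under 2-fold and above a CT of 30 in both stages.

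Against LSK, cytoplasmic myelocytes had a log2 change of -1.54 for miR-10b (-1.43 after this subtraction), opposite in sign to the whole cell 1.17, and of -8.52 for miR-196b (-8.40). Both were counted as lower, where 41 of 123 named assays (33.3%) were lower and 37 (30.1%) higher. Granulocytes against LSK gave -7.58 for cytoplasmic miR-196b (-7.52 after this subtraction), 192-fold lower and the 5th largest decrease of 124 assays, of which 43 (34.7%) were lower and 42 (33.9%) higher by the same rule. The cytoplasmic CT of miR-196b was above 30 in myelocytes (33.7) and granulocytes (32.7). For cytoplasmic miR-10b the same comparison gave -0.49 (-0.43), 1.41-fold lower and under the limit, but -1.91 and past the limit with the control assays as the constant.

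The whole cell and cytoplasmic samples of a stage are separate RNA preparations of the same cell type, and whether they came from the same sort is not stated. With no replicate wells, their changes were set side by side. The difference between them also holds the fractionation and the loading, so it is not the technical spread of an assay. Over named assays that had a CT under 30 for either stage, in each fraction, the unscaled whole cell change exceeded the cytoplasmic one by a median of 1.87 on the log2 scale from LSK to granulocytes, with an SD across assays of 2.002 (115 assays). For miR-196b this difference was 0.20, 1.68 below the median with 8 assays farther from it. For miR-10b it was 3.41, 1.53 above the median with 9 farther. Both lay outside the quartiles of 1.27 and 2.33, on opposite sides, though within 1 SD of the median. That SD includes assays with a well set at 40, such as miR-466d-3p, at 1.99 in whole cell and -13.5 in cytoplasmic RNA. From LSK to promyelocytes the median was 1.86 with an SD of 1.61 (101 assays), and miR-10b differed by 5.16. Only 3 of these 101 assays lay farther from the median than miR-10b, which itself was above a CT of 30 in both whole cell samples. From promyelocytes to myelocytes the median was -0.57 with an SD of 0.96 (105 assays), and miR-196b differed by 2.295, with 2 assays farther from the median.

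Set out by stage, the gap of miR-10b was widest in promyelocytes, where the whole cell CT was 3.04 cycles below the cytoplasmic CT. Among the 74 named assays whose higher CT of the 2 samples lay from 30 to 35, the median of this gap was -0.45, and miR-10b had the largest negative value. In LSK the whole cell CT of miR-10b was 2.13 cycles above the cytoplasmic CT, where the 88 assays of this CT range had a median of 1.26 and quartiles of 0.73 and 1.82. The gap of miR-196b was widest in myelocytes, at -2.35 cycles, with 2 of 67 assays below it.

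**Figure D2:**
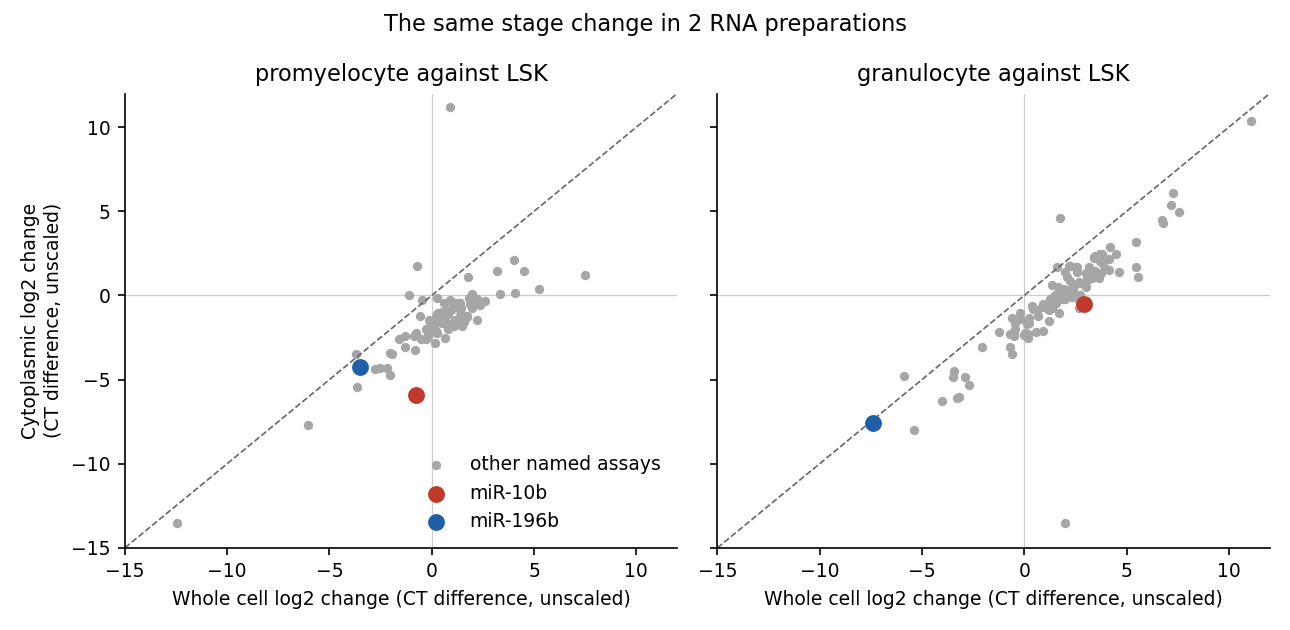
Unscaled log2 change (CT difference) in whole cell RNA (x axis) against cytoplasmic RNA (y axis) for promyelocytes against LSK (left) and granulocytes against LSK (right); each point is 1 assay that had a CT under 30 for either stage in each fraction, the large points are miR-10b (red, drawn on the left although its whole cell CT was above 30) and miR-196b (blue), and the dashed line marks equal changes. The typical assay lies off the line, by a median of 1.87 on the right, where miR-196b is at -7.39 and -7.58, and miR-10b is at -0.76 and -5.93 on the left and at 2.91 and -0.49 on the right.

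Nuclear RNA separated the members further. The nuclear:cytoplasmic ratio was computed as 2 raised to the cytoplasmic minus the nuclear CT, divided by 3, as the study did. The labels state 100 ng of RNA for the reactions while the study describes the fractions as cell equivalents, and the divisor lowers every ratio alike. Nuclear miR-196b lay 3.72 cycles above the cytoplasmic CT in LSK and 2.09 cycles in promyelocytes, ratios of 0.0253 and 0.0783. Assays whose cytoplasmic CT was under 30 and whose nuclear well was detected had a median distance of 4.28 cycles in LSK and 2.86 in promyelocytes. In LSK the 19 other assays within 1 cycle of the cytoplasmic CT of miR-196b were all detected in the nuclear sample, with CT values from 24.3 to 32.2, and miR-196b at 28.9 lay inside this range.

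For miR-10b the ratio is an upper bound, since the nuclear wells are set at 40. It was at most 9.57e-05 in LSK cells, 0.00583 in promyelocytes, 0.000278 in myelocytes and 0.000135 for granulocytes. Where the cytoplasmic CT was under 30, the nuclear well was undetermined for 5 of 106 named assays in LSK (4.72%), 6 of 104 in myelocytes (5.77%) and 3 of 103 in granulocytes (2.91%), and miR-10b was 1 of them each time. In promyelocytes it was 3 of 87 (3.45%), and miR-10b with its cytoplasmic CT of 34.2 was outside this set. In LSK 28 of the 30 other assays within 1 cycle of its cytoplasmic CT were detected in nuclear RNA, at CT values from 28.1 to 37.1. In myelocytes 19 of 22 such assays were detected, at CT values from 31.5 to 37.4, and in granulocytes 33 of 34, at 30.2 to 34.2. Of the 41 named assays undetermined in all 4 nuclear samples, 4 had a cytoplasmic CT under 30 in at least 1 stage: miR-10b, miR-139-3p, miR-200a* and miR-466d-3p. Only miR-10b of these had it in 3 stages. The distance in LSK, at least 11.8 cycles with the undetermined well at 40, compares with 8.16 cycles for the most distant assay that was detected. These bounds depend on where an undetermined well is set: with every CT above 35 set to 35, the ratio of miR-10b was at most 0.00306 in LSK, 0.186 in promyelocytes, 0.00891 in myelocytes and 0.00431 for granulocytes. Its distance in LSK was then 6.77 cycles, the same as the 6.77 cycles of the most distant detected assay.

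**Figure D3:**
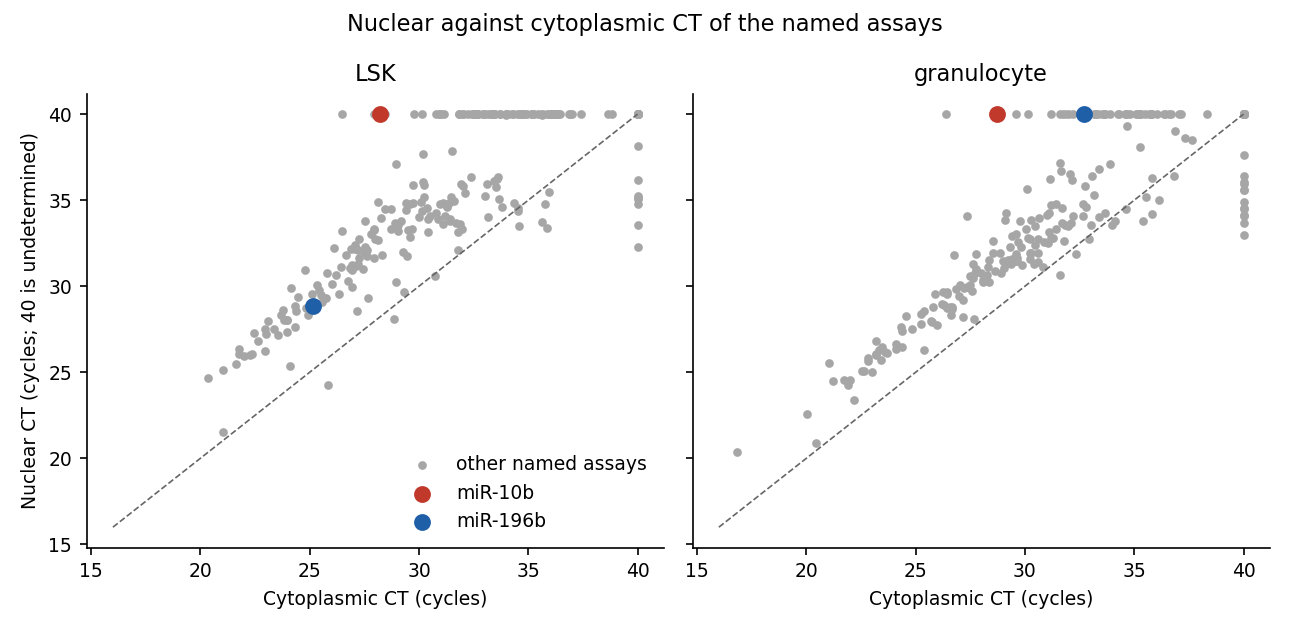
Nuclear CT (y axis) against cytoplasmic CT (x axis), in cycles, for the 270 named assays in LSK (left) and granulocytes (right); red is miR-10b, blue miR-196b, points at 40 are undetermined wells and the dashed line marks equal CT. miR-196b in LSK lies within the band of the other assays at 25.1 and 28.9, while miR-10b lies at 40 above a band that reaches its cytoplasmic CT of 28.2 in LSK and 28.7 in granulocytes.

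The passenger strands of miR-10a and miR-196a, the 2 miRNAs not named, were near or beyond detection. miR-10a*, the other arm of the miR-10a hairpin, was undetermined in 10 of 12 samples, with a CT of 33.9 in whole cell myelocytes and 35.2 in cytoplasmic promyelocytes. miR-196a* had CT values from 35.4 to 39.7 in 7 samples and was undetermined in the other 5. Neither passenger strand came under a CT of 30, and miR-10b* and miR-196b* were not among the named assays.

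miR-10 belongs to an old miRNA group together with miR-99, miR-100 and miR-125, and 3 of 5 listed relatives were named. Their sequences are shown to place the seeds against that of miR-10b.
miR-99b: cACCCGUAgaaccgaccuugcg
miR-125a-5p: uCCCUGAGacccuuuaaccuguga
miR-125b-5p: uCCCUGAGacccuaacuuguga
None of the 3 has the seed of miR-10b: within the first bases, miR-99b shares the run ACCC with it, and the miR-125 forms share CCCUG shifted by 1 base. The relatives were highest in LSK in both fractions, while miR-10b was highest in granulocytes in whole cell RNA and in LSK in cytoplasmic RNA. Whole cell miR-125a-5p had a CT of 28.8 in LSK and from 34.1 to 35.4 later, a log2 change of -6.04 in granulocytes against LSK. Whole cell miR-125b-5p had a CT of 28.9, 30.9, 31.1 and 32.05 from LSK to granulocytes, a change of -3.86. miR-99b had a whole cell CT of 31.5 in LSK and from 35.3 to 36.8 later, so that it was above 30 throughout. The whole cell change of miR-10b over the same stages was 2.24, opposite in sign to that of the 3 relatives, and the change of miR-196b was -8.06. In cytoplasmic RNA miR-10b, at -0.49, had the same sign as miR-99b at -7.17, miR-125a-5p at -8.0025 and miR-125b-5p at -6.05.

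miR-196 is not a member of the let-7 family. The run AGGUAG at its bases 2 to 7 is found in let-7e at bases 3 to 8, shifted by 1 base. In miR-98 the shared run AGGUAGU is 7 bases long. The other let-7 forms were not compared in sequence.
let-7e: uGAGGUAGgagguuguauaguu
miR-98: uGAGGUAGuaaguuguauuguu
Of 9 listed let-7 and miR-98 assays, 7 were named, and their whole cell log2 changes in granulocytes against LSK ran from -0.63 for let-7c to 1.73 for let-7g. Whole cell let-7e had a CT of 25.9, 25.7, 25.7 and 25.7 from LSK to granulocytes, a span far below that of miR-196b.

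The assays most like each member were found by the Pearson correlation of the CT over the 4 whole cell and 4 cytoplasmic samples, each fraction centred on its own mean, among the named assays detected in all 8 samples with a CT under 30 in at least 1. The 8 points share samples, stages and loading across all assays, so the coefficients are descriptions and carry no p-value. For miR-10b they were miR-29c (r of 0.98), miR-30e (0.98), miR-29a (0.96), miR-30a (0.96) and miR-30c (0.95), of 122 candidates. By their seeds these 5 fall into 2 families, AGCACCA for miR-29a and miR-29c and GUAAACA for the 3 miR-30 forms. miR-29c shows the shared pattern at a smaller size, going from LSK to granulocytes with a CT of 27.2, 27.7, 26.3 and 25.3 in whole cell RNA and of 25.5, 28.1, 26.5 and 25.8 in cytoplasmic RNA. The set depended on the measure: 2 of the 5 were kept with Spearman's coefficient, 3 with the whole cell samples only and 2 after scaling by the mean CT of the named assays, and miR-29c was kept in all 3.

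For miR-196b the most similar assays were miR-130a (r of 0.95), miR-155 (0.95), miR-126-5p (0.95), miR-222 (0.94) and miR-203 (0.92). miR-155, a miRNA of immune activation and early progenitors, had a whole cell CT of 26.1, 27.4, 28.9 and 30.1 from LSK to granulocytes. miR-222, a regulator of the stem cell factor receptor Kit, had a whole cell CT of 22.7 in LSK and 24.3 to 24.96 later. All were highest in LSK, and in whole cell RNA none spanned as many cycles as the 7.39 of miR-196b. The coefficient between miR-10b and miR-196b was -0.22, at rank 111 of the 122 candidates.

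**Figure D4:**
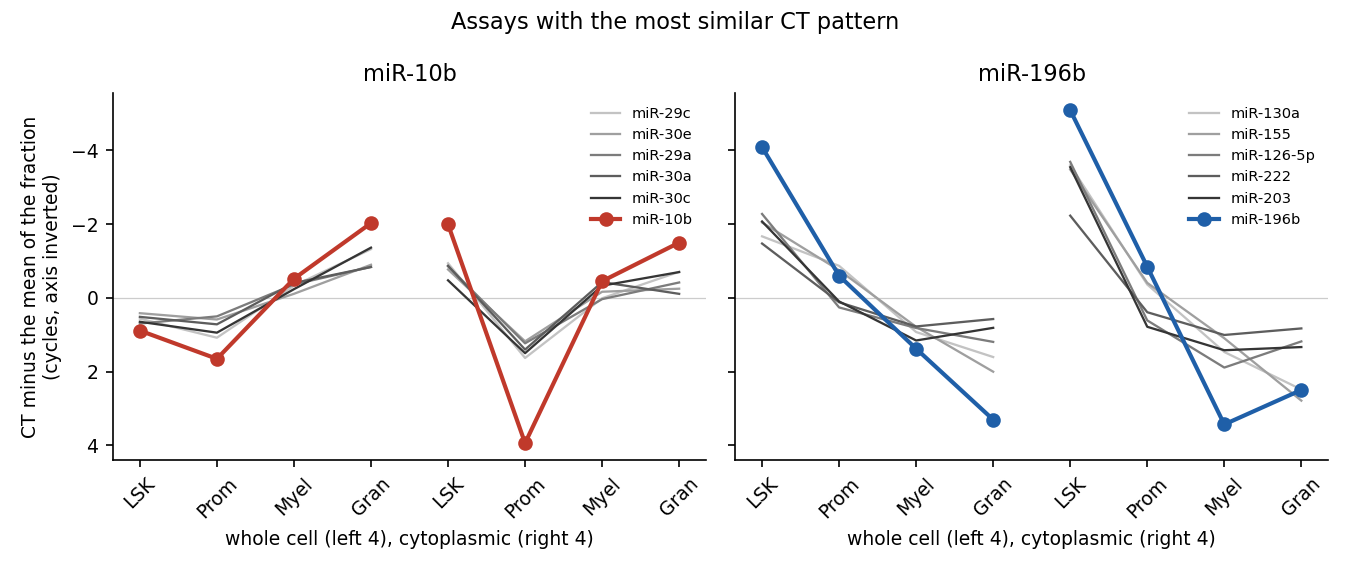
CT minus its mean within the fraction, in cycles on an inverted axis, for miR-10b (left, red) and miR-196b (right, blue) and the 5 assays most similar to each (grey), over 4 whole cell and 4 cytoplasmic samples. In each fraction the grey assays span fewer cycles than the coloured one, and miR-10b is lowest in promyelocytes in both fractions.

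Markers of other cells that the sorted samples could hold are given beside these results. The lymphoid pair, miR-150 and miR-181a, had a summed level, written as a CT, of 25.1, 27.9, 25.5 and 25.7 from LSK to granulocytes in whole cell RNA and of 24.01, 28.6, 25.2 and 26.3 in cytoplasmic RNA, lowest in promyelocytes like miR-10b. This sum was carried by miR-150, while whole cell miR-181a was highest in promyelocytes, with a CT of 29.8, 28.97, 29.2 and 29.6. The epithelial list, with 2 of 5 named (miR-200b and miR-200c), had a whole cell summed level of 31.6, 31.2, 28.8 and 27.6, highest in granulocytes like miR-10b. Of the erythroid list only miR-486 of 3 was named, and it was undetermined in LSK and promyelocytes and at 31.5 and 31.7 in whole cell myelocytes and granulocytes. The stromal and endothelial list, with 5 of 6 named, had a whole cell summed level of 24.3 in LSK and 27.0 to 27.5 later and rested on miR-126-3p, which blood stem cells also carry. Of the 4 whole cell samples, miR-143 was detected only in myelocytes, at a CT of 34.5, and miR-145 only in myelocytes and granulocytes, at 32.5 and 32.7. Whole cell miR-199a-3p had its lowest level in LSK, with a CT of 33.7, 32.8, 32.1 and 32.3, while its cytoplasmic level was highest in LSK, at 32.4. miR-218 of the same list was highest in LSK like miR-196b, at a whole cell CT of 33.0005 and a cytoplasmic CT of 33.0046, and undetermined at the later stages in both fractions. The liver marker miR-122 was not among the named assays. The part of these cells in the levels of miR-10b and miR-196b was not tested.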

How the data were processed

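The authors reverse transcribed 100 ng of RNA per sample, read TaqMan rodent miRNA cards A and B on an ABI real-time instrument, used the SDS and RQ Manager programs to call the CT, and deposited the values without normalization, 593 assays in 12 samples. Undetermined wells were listed at 40. With 1 well per assay, the precision of a CT is unknown. Numbered assays were named by unique match of cytoplasmic and nuclear CT to the printed list of the study within 0.0005 cycles (248 assays, of 257 entries), then by whole cell CT differences within 0.002 cycles (22 assays), after a line fitted for each pair of stages had turned the printed log values, which are on another scale than the cycles used here, into CT differences, with 0 conflicts. The groups were 4 stages in 3 fractions, 1 sample each, described with no test. Named miRNAs were the members, their passenger strands, the relatives listed, the markers and the 5 most similar assays. Members and lists were chosen with earlier results of these data known. Alternatives changed scaling, CT and fold limits, undetermined wells and fold per cycle. Calls and similarity ranking were tested on simulated data. RefSeq GRCm38.p6 gave sequences and gene positions. The tools were scipy 1.17.1, pandas 2.3.3 and numpy 2.4.6 under Python 3.11.15, with figures by matplotlib 3.10.9. The mRNA arrays and cell line experiments were not analysed here.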

Additional observations from a re-analysis of the deposited data

Results flagged for a closer look

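For 3 of the member comparisons over the 6 pairs of stages the whole cell and the cytoplasmic samples moved in opposite directions, 1 pair of samples each, and the difference was not tested. miR-10b in myelocytes against LSK had a log2 change of 1.17 in whole cell and -1.54 in cytoplasmic RNA. The same signs were found for 36 of the 112 named assays that had a CT under 30 for either stage, in each fraction. miR-10b in granulocytes against LSK had a log2 change of 2.24 in whole cell and -0.49 in cytoplasmic RNA, and 23 of 115 named assays had these signs. Both comparisons of miR-10b were above 0 in whole cell RNA and below 0 in cytoplasmic RNA under each scaling tried. miR-196b in granulocytes against myelocytes had a log2 change of -2.36 in whole cell and 0.93 in cytoplasmic RNA, with CT values above 30 in all 4 samples, and the cytoplasmic change was -0.66 with the control assays as the constant. The signs of this comparison were found for 18 of 109 named assays, a set that does not hold miR-196b. Opposite signs were thus also found in many other named assays.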

How the results depend on the processing

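Of 106 recomputed log2 changes and ratios of the 2 miRNAs, 95 kept their direction and their side of the limit. For miR-10b in whole cell myelocytes against LSK the change was 0.32 with the mean CT of the named assays and 0.44 with that of all assays. The exceptions for miR-10b in granulocytes against myelocytes were 0.99 in whole cell RNA at 1.9-fold per cycle and, in cytoplasmic RNA, -0.54 with the control assays of card B as the constant, 0.996 with the mean CT of the named assays and 0.97 at 1.9-fold per cycle. With the control assays, cytoplasmic miR-10b in granulocytes against LSK came to -1.91, past 2-fold, and cytoplasmic miR-196b in granulocytes against myelocytes to -0.66. The cause was not tested. With every CT above 35 set to 35, the nuclear:cytoplasmic bounds were 0.186 for miR-10b in promyelocytes and 0.131 for miR-196b in myelocytes, above the limit of 0.1 set for these ratios, since the construction shortens the distance to an undetermined well; without the divisor of 3 the ratio of miR-196b in promyelocytes was 0.235. The number of named assays lower in whole cell granulocytes than LSK was 20. It was 12 at a fold limit of 3, 12 with no constant subtracted and 31 with the named-assay mean as the constant, and the number higher, 69 as reported, was then 54, 85 and 51. Of the 5 assays most like miR-10b, 2 or 3 were kept under each alternative. No paired analysis was possible because each stage has 1 sample per fraction, and no sample could be left out for the same reason. The fractions were set side by side within each stage, without a test. Above a CT of 30, values are limited by detection, which touches miR-10b in whole cell LSK and in promyelocytes of both fractions (a cytoplasmic CT of 34.2) and miR-196b in myelocytes and granulocytes.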
